A study of Mus musculus with 3 samples.

Results

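Stat3 and 8 genes that act with it in signalling by cytokines of the interleukin-6 family were followed through the cell types of the mouse lumbar spinal cord. They were the shared receptor subunit Il6st (gp130), the receptor subunits Il6ra, Osmr, Lifr and Cntfr, the kinases Jak1 and Jak2, the transcription factor Stat3 and the feedback inhibitor Socs3. All 9 were among the 31040 genes of the count table and were taken by symbol. Stat3 was chosen by its UMI counts in oligodendrocytes, which earlier results of these data had shown to be higher in SOD1G93A mice. Its genotype difference in that cell type, and those of the other 8 genes, are therefore given as a description with no test. The comparisons between cell types and between sexes did use its counts in oligodendrocytes, so those Stat3 tests are not independent of the choice.

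Single-nucleus RNA sequencing was performed on 12 mice aged 90 days. The 6 SOD1G93A mice were B6.Cg-Tg(SOD1G93A)1Gur/J transgenics that carry many copies of a mutant human SOD1 transgene driven by the human gene's own promoter, a model of amyotrophic lateral sclerosis, and the 6 WT mice were their C57BL/6J littermates, with 3 females and 3 males of each genotype. Each of 3 pools (A, B and C) held 1 mouse of each sex and genotype, told apart by nuclear hashtags, so that every pool gave 2 pairs of an SOD1G93A and a WT mouse of the same sex. In all, 14662 nuclei and 206486779 unique molecular identifiers (UMIs, counts of captured RNA molecules) were analysed, with 548 to 2259 nuclei and 6411715 to 36668441 UMIs per mouse, and 15 barcode sequences occurred in more than 1 pool.

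Cytokines of this family bind receptor complexes that contain gp130 and activate the Janus kinases JAK1 and JAK2, which phosphorylate STAT3. Phosphorylated STAT3 enters the nucleus and switches on target genes, among them Socs3, whose product blocks the receptor complex. In the central nervous system the pathway is best known in reactive astrocytes, where STAT3 drives Gfap, the gene of the main intermediate filament of these cells. Messenger RNA levels do not report on phosphorylation, and the counts used here hold no protein. In older mice the authors reported more GFAP protein by immunofluorescence in SOD1G93A than in control lumbar cord.

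In the mm10 build Stat3 lies on the minus strand of chromosome 11 from 100885098 to 100939540, and its 3' end overlaps Stat5a on the opposite strand. Socs3 lies on the minus strand of the same chromosome from 117966079 to 117970047. Osmr (chromosome 15, from 6813577 to 6874969) and Lifr (from 7090614 to 7197489) are neighbours on chromosome 15, and Jak1 and Cntfr are both on chromosome 4, from 101152367 to 101265282 and from 41657498 to 41697089. Il6st spans 112464070 to 112510086 on chromosome 13, Il6ra 89864059 to 89913196 on chromosome 3, and Jak2 29251828 to 29313080 on chromosome 19. Il6ra overlaps an antisense transcript, and Jak1 overlaps the end of Raver2, at 101152370, both on the opposite strand. Introns were counted, and the part of these overlaps in the counts was not tested.

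Sequences upstream of the RefSeq starts of Stat3 and Socs3 are shown because STAT3 binds motifs of the form TTCNNNGAA and Socs3 is a textbook STAT3 target. They come from RefSeq on GRCm38.p6 and are written on the gene's strand, 5' to 3', with the motif in capitals. The Socs3 stretch leaves out the bases next to the start, which overlap an annotated exon, and lies inside the gene's span given above, in an intron of its longest annotated transcript.
Stat3 (chr11:100939541-100939790): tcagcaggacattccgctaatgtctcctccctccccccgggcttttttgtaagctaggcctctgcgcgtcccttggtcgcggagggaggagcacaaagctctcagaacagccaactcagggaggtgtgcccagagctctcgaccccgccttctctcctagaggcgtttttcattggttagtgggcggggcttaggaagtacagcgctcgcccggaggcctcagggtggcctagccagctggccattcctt
Socs3 (chr11:117969452-117969616): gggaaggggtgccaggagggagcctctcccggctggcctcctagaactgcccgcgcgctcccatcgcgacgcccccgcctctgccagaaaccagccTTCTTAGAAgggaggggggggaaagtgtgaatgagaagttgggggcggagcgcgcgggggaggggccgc
The Socs3 sequence held TTCTTAGAA, starting 154 bases before the start, and the 250 bases shown for Stat3 held no match. Of the 15 windows of 250 bases before a start that RefSeq gave for the 9 members, matches on either strand occurred in those of 1 gene. Among all 32851 such windows, 2306 (7.02%) held TTCNNNGAA.

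Stat3 was detected in all 10 cell types. Levels are given as CPM, the UMIs of a gene per 1000000 UMIs of that cell type in that mouse, as the mean over 12 mice with the SD, for the 8 cell types with nuclei of every mouse. The level of Stat3 was 146 ± 43.1 in motor neurons, 134 ± 28.2 in endothelial cells, 96.7 ± 30.3 in astrocytes, 96.7 ± 35.8 in oligodendrocytes, 80.4 ± 34.9 in oligodendrocyte precursors (OPCs), 76.5 ± 46.4 in Schwann/meningeal nuclei, 70.7 ± 17.0 in nuclei labelled microglia and 47.6 ± 6.31 in the other neurons. In this order, which is also that of the mean log2 levels, the steps down from endothelial cells to astrocytes (10 of 12 mice, FDR = 0.0144) and from nuclei labelled microglia to neurons (12 of 12 mice, FDR = 0.0038) passed an exact sign-flip permutation test on log2 levels within mice, at an FDR under 0.05 over 63 neighbouring pairs of all members. For the other neighbours the difference was within the spread between mice. Motor neurons had 67 nuclei, with 1 to 11 per mouse, and OPCs 181, with 2 to 26 per mouse. Levels of single mice in these types thus rest on few nuclei. The order is over both genotypes. In WT mice alone the mean of endothelial cells was above that of motor neurons. There OPCs also stood above oligodendrocytes, and nuclei labelled microglia above Schwann/meningeal nuclei.

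**Figure D1:**
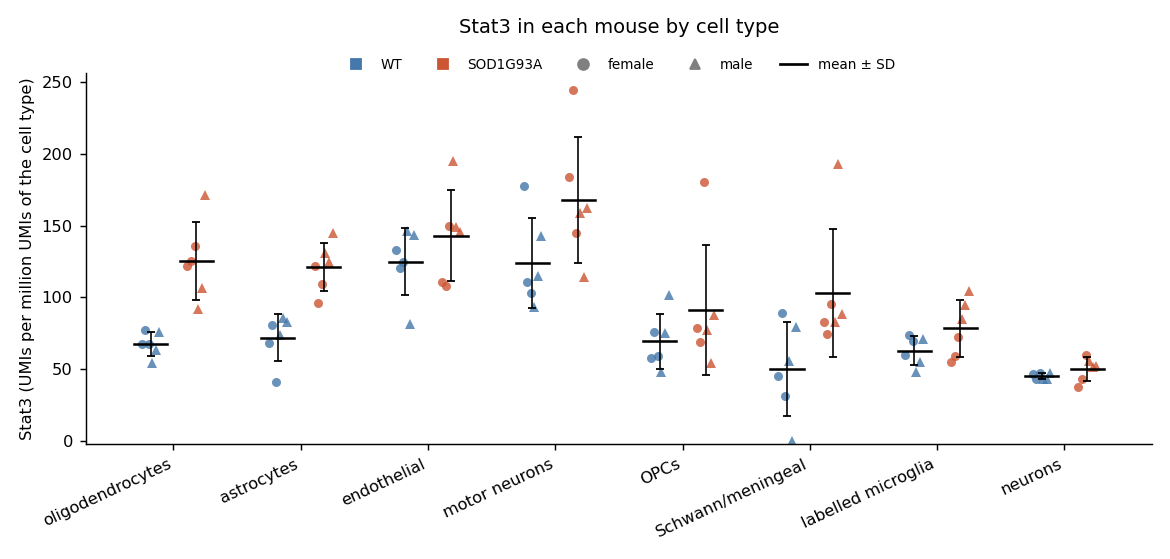
Stat3 in each mouse (CPM of the cell type, y axis) by cell type (x axis) for WT and SOD1G93A mice, with 1 point per mouse (circles female, triangles male) and bars for the mean ± SD. In oligodendrocytes the WT mice ranged from 54.4 to 77.4 and the SOD1G93A mice from 91.9 to 171.3, and in astrocytes from 41.2 to 85.4 and from 96.3 to 144.9.

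The labels of the nuclei were checked against marker genes. Oligodendrocytes carried 6446 to 8849 CPM of 6 oligodendrocyte markers in WT mice, and astrocytes 6058 to 7746 of 5 astrocyte markers. The nuclei labelled microglia departed from that pattern, since their 5 microglial markers summed to 152 ± 41.5 in WT and 223 ± 60.8 in SOD1G93A mice, below their 6 oligodendrocyte markers at 3197 ± 391 and 2926 ± 397 and their 5 neuron markers at 2151 ± 211 and 2324 ± 260. Schwann/meningeal nuclei held only 2.2 ± 5.4 CPM of 2 Schwann cell markers in WT mice against 6172 ± 875 of oligodendrocyte, 4707 ± 917 of neuron, 2049 ± 712 of astrocyte and 372 ± 105 of 3 motor neuron markers. Nuclei labelled fibroblasts held 301 ± 244 of 3 fibroblast markers in WT and 2469 ± 4582 in SOD1G93A mice, with medians of 214 and 354, against 1730 ± 1158 and 737 ± 496 of oligodendrocyte markers, with medians of 1432 and 896. Values of these 3 groups are therefore given under the name of the deposited label only. The OPCs of WT mice held 3880 ± 1310 of 4 OPC markers, with 2745 ± 893 of oligodendrocyte and 1378 ± 187 of neuron markers beside them.

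The receptor subunits differed in where they were found. Osmr, the receptor subunit for oncostatin M, was at 199 ± 72.1 CPM in endothelial cells and at 0.23 to 7.43 in the other 7 types. Each of the 12 mice had more Osmr in endothelial cells (144 to 390) than any mouse had in astrocytes (0 to 17.0). Il6ra, which binds interleukin-6, was also highest in endothelial cells, at 69.0 ± 18.4, and the next level, 13.8 ± 7.72 in nuclei labelled microglia, was lower in 12 of 12 mice (FDR = 0.0038). Il6st, the subunit all of these receptors share, was at 116 ± 18 in endothelial cells, 84.1 ± 23.8 in Schwann/meningeal nuclei and 82.6 ± 17.4 in astrocytes, with steps between them that did not pass the test, and it dropped to 37.2 ± 27.5 in motor neurons (FDR = 0.0056, 11 of 12 mice).

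Cntfr, the subunit that binds ciliary neurotrophic factor, was at 162 ± 16.2 CPM in astrocytes and 68.0 ± 23.7 in motor neurons (higher in astrocytes in 12 of 12 mice, FDR = 0.0038), and neurons at 34.2 ± 3.20 exceeded oligodendrocytes at 26.1 ± 8.62 (10 of 12 mice, FDR = 0.0346). Endothelial cells held 46 Cntfr UMIs, a level of 10.6 ± 6.11. Lifr, the subunit for leukaemia inhibitory factor, was at 181 ± 31.7 in astrocytes, 157 ± 66.0 in motor neurons, 155 ± 90.6 in Schwann/meningeal nuclei and 111 ± 32.6 in endothelial cells, with no step between neighbours passing the test. Its lower levels did separate, from 64.2 ± 10.4 in oligodendrocytes to 56.5 ± 14.2 in nuclei labelled microglia (11 of 12 mice, FDR = 0.0118) and to 33.7 ± 2.94 in neurons (12 of 12 mice, FDR = 0.0038). Among the 8 types with nuclei of every mouse, astrocytes thus had the highest mean level of the Cntfr and Lifr subunits, and endothelial cells that of Osmr, Il6ra and Il6st.

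Of the kinases, Jak1 was highest in motor neurons at 248 ± 52.4 CPM against 160 ± 15.3 in astrocytes (12 of 12 mice, FDR = 0.0038), and endothelial cells at 116 ± 12.7 exceeded nuclei labelled microglia at 79.2 ± 8.79 (12 of 12 mice, FDR = 0.0038). Jak2 had its highest mean level in oligodendrocytes, at 162 ± 14.3, followed by 138 ± 21.6 in endothelial cells, without a difference that passed the test, and its lowest in astrocytes at 49.5 ± 8.27, below neurons at 59.7 ± 4.73 (11 of 12 mice, FDR = 0.0380). Socs3 was rare, with 33 UMIs in 146342488 of neurons, 23 in astrocytes and 20 in endothelial cells, and its levels are not put in order. Of 63 neighbouring pairs over the 9 genes, 17 (27%) passed the test, 11 of them among the 42 pairs with at least 50 UMIs in both types; the other 21 pairs rest on fewer UMIs, where the added count of 0.5 and the depth weigh on the value, and are not read here. In the 6 WT mice alone 0 pairs passed, where the smallest possible exact p is 0.0312.

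**Figure D2:**
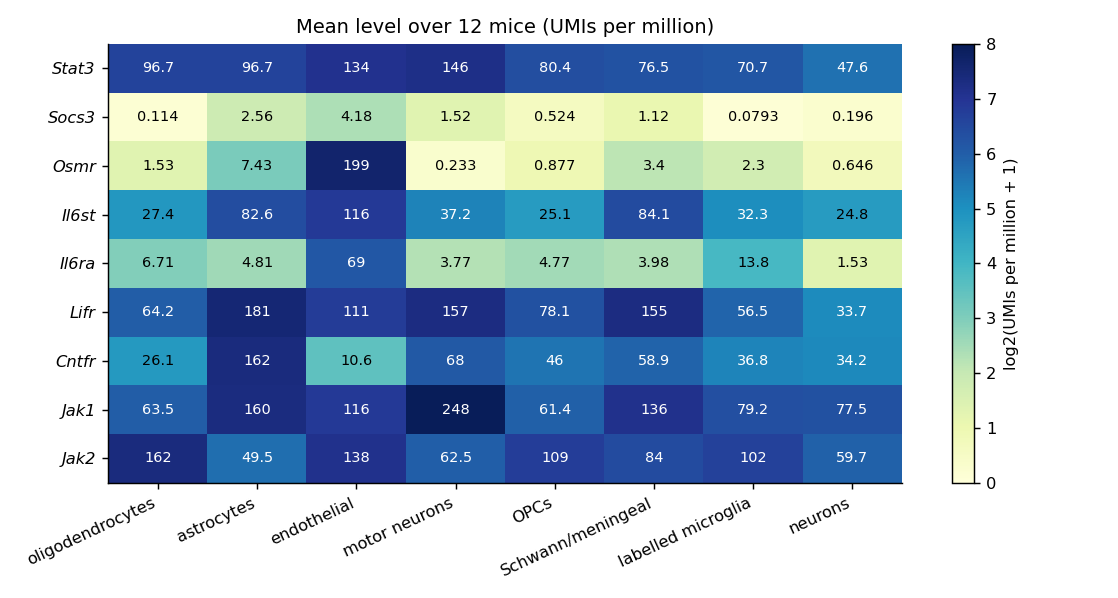
Mean level of each of the 9 genes (rows) in the 8 cell types with nuclei of every mouse (columns), as CPM over 12 mice printed in the cells and as colour on a log2(CPM + 1) scale. Osmr reaches 199 in endothelial cells alone, Cntfr and Lifr are highest in astrocytes (162 and 181) and Jak2 in oligodendrocytes (162).

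Ependymal cells and nuclei labelled fibroblasts were sampled too thinly for levels by mouse, with 93 and 46 nuclei of 11 and 10 mice. In WT mice ependymal cells held 16 Stat3 UMIs, a level of 92.1 CPM (exact 95% Poisson interval 52.6 to 150, counting error only), and 13 Il6ra UMIs, a level of 74.8 (39.8 to 128). In SOD1G93A mice 12 Stat3 UMIs gave 153 (79.2 to 268). Nuclei labelled fibroblasts of SOD1G93A mice held 15 Osmr UMIs, a level of 119 (66.4 to 196), and no Socs3 UMI was found in either type. Of the 69 Lifr UMIs in the latter, 57 came from 1 nucleus of a female SOD1G93A mouse of pool A, and the log2 fold change of 4.03 (SE 1.28) did not pass the test (FDR = 0.69).

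In oligodendrocytes, the cells that form myelin, Stat3 was higher in SOD1G93A than in WT mice, the contrast for which it was chosen. In WT mice its level was 54.4 at the lowest, 67.6 at the median and 77.4 at the highest, and in SOD1G93A mice 91.9, 123.6 and 171.3, on 727 and 857 UMIs. The groups did not overlap, with means of 67.7 ± 8.44 and 126 ± 27.2 (SD, n = 6 each). The log2 fold change was 0.87 (SE 0.13), a 1.82-fold higher level, and the SOD1G93A mouse was higher in 6 of 6 pairs. Groups without overlap were found for 38 of 14733 genes with at least 20 UMIs in this cell type (0.258%). Of 10521 genes tested in oligodendrocytes, 5 (0.0475%) were called at FDR < 0.1, the contrast the choice of Stat3 came from. Within pools the log2 ratio was 0.80 in pool A, 0.73 in pool B and 1.09 in pool C.

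The share of nuclei with Stat3 was counted as well. In oligodendrocytes the shares, and the levels without the top nuclei, come from the UMIs and contrast used in choosing Stat3. They are not independent of that choice. Of 1200 oligodendrocyte nuclei of WT mice 34.9% had at least 1 Stat3 UMI, and of 965 of SOD1G93A mice 43.4%, at medians of 6263 and 5299 UMIs per nucleus. After each nucleus was thinned to 2000 UMIs, leaving out 53 and 49 shallower nuclei, the shares were 11.9% and 21.2%, and per mouse they ranged from 7.0% to 17.1% and from 15.0% to 32.6%, so that the groups overlapped on this measure. In neurons the thinned shares were 8.43% and 8.44%, and in nuclei labelled microglia 15.9% and 17.9%. They were 12.5% and 19.0% in OPCs and 20% and 26.5% in endothelial cells. Schwann/meningeal nuclei had 6.90% and 15.6%, with 261 and 407 shallower nuclei left out. Motor neurons, with 44 and 23 nuclei, had 36.4% and 17.4%. Among oligodendrocytes 1 nucleus of a female SOD1G93A mouse of pool B held 27 of the Stat3 UMIs. Without the nucleus with the most Stat3 in each mouse the oligodendrocyte levels were 50.8 to 77.7 in WT and 86.4 to 171 in SOD1G93A mice, still without overlap.

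Stat3 was followed through the 5 sub-clusters of oligodendrocytes. In sub-cluster 0 it was 39.4 to 92.9 in WT and 115 to 213 in SOD1G93A mice, with no overlap and a log2 fold change of 1.15 (SE 0.21). The log2 fold changes were 0.92 (SE 0.18) in sub-cluster 1, 0.46 (SE 0.19) in sub-cluster 2 and 1.02 (SE 0.39) in sub-cluster 3. The groups overlapped in each of these sub-clusters. Stat3 in sub-cluster 4, at 18 and 20 UMIs over 53 nuclei, was below the count filter. These values come from the nuclei and contrast used in choosing Stat3 and are not independent of it.

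**Figure D3:**
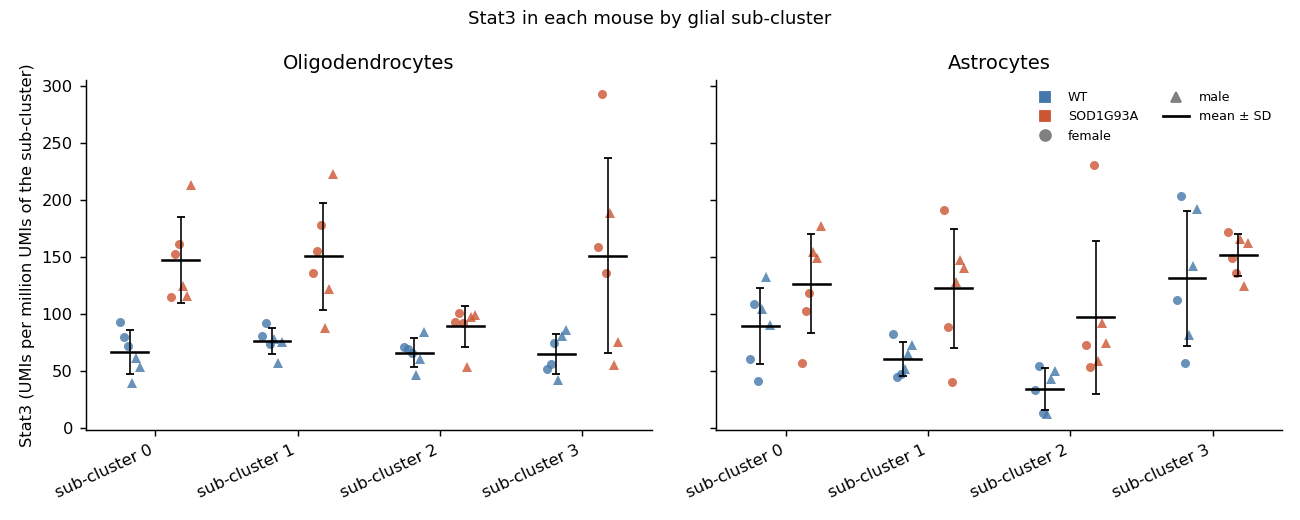
Stat3 in each mouse (CPM of the sub-cluster, y axis) in sub-clusters 0 to 3 of oligodendrocytes (left) and astrocytes (right), with 1 point per mouse (circles female, triangles male) and bars for the mean ± SD. In oligodendrocyte sub-cluster 0 all 6 SOD1G93A mice (115 to 213) lie above all 6 WT mice (39.4 to 92.9), whereas in the 4 astrocyte sub-clusters shown the groups overlap.

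The other members that passed the filter had estimates below 0 in oligodendrocytes, although the mean CPM of Il6st was 26.7 in WT and 28.03 in SOD1G93A mice. The log2 fold changes were -0.10 (SE 0.22) for Il6st, -0.27 (SE 0.12) for Lifr, -0.41 (SE 0.23) for Cntfr, -0.16 (SE 0.16) for Jak1 and -0.05 (SE 0.10) for Jak2, and all of these groups overlapped. Il6ra had -0.80 (SE 0.47), with WT mice at 4.82 to 10.4 CPM and SOD1G93A mice at 0 to 10.8. Osmr (15 UMIs in WT and 11 in SOD1G93A mice) and Socs3 (1 and 2 UMIs) were below the filter. The markers of other cell types in these libraries stood at 621 ± 127 in WT and 496 ± 122 in SOD1G93A mice for astrocytes, 76.3 ± 12.0 and 71.3 ± 17.3 for microglia, 12.5 ± 3.4 and 18 ± 8.8 for endothelial cells, and 362 ± 102 and 487 ± 309 for OPCs. Neuron markers stood at 871 ± 226 and 889 ± 235, and motor neuron markers at 13.5 ± 5.4 and 20.7 ± 10.7. The part of these markers in the Stat3 difference was not tested.

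Stat3 was also higher in astrocytes of SOD1G93A mice, a cell type its choice did not use. In WT mice it was 41.2 at the lowest, 77.4 at the median and 85.4 at the highest, and in SOD1G93A mice 96.3, 123 and 145, on 424 and 536 UMIs. The groups did not overlap and the SOD1G93A mouse was higher in 6 of 6 pairs. Groups without overlap were found for 138 of 13795 genes with at least 20 UMIs in astrocytes (1%). The log2 fold change was 0.67 (SE 0.15), a 1.59-fold higher level, with FDR = 0.0201 in limma. Of 9347 genes tested in astrocytes, 214 (2.29%) were called, 129 of them higher (1.38%). Within pools the log2 ratio was 0.83 in pool A, 0.40 in pool B and 1.10 in pool C.

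The call in astrocytes rested in part on 1 mouse. Without the female WT mouse of pool C, which had the lowest level of 41.2, the log2 fold change was 0.54 and the FDR 0.119. Over the 12 fits that each left out 1 mouse the FDR ran from 0.0122 to 0.119, and over the 7 other settings that gave an adjusted p from 0.0210 to 0.0403. In the same libraries oligodendrocyte markers summed to 1481 ± 274 CPM in WT and 2172 ± 486 in SOD1G93A mice, with 6 of 6 markers present, astrocyte markers to 6872 ± 590 and 8305 ± 743, and neuron markers to 821 ± 146 and 1107 ± 317. Mbp, a myelin gene, was higher at a log2 fold change of 0.50 (FDR = 0.0247), and the median mitochondrial share per nucleus was 0.733% and 1.38%. The part of these differences in the Stat3 result was not tested.

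By share of nuclei, 28.8% of 927 astrocyte nuclei of WT mice and 45.1% of 628 of SOD1G93A mice had a Stat3 UMI, and after thinning to 2000 UMIs 13.2% and 20.4%. Per mouse the thinned shares were 9.80% to 15.5% and 14.0% to 24.3%, so that the groups overlapped. The genotypes also differed in which astrocytes they held, since sub-cluster 1 had 345 of the 927 nuclei of WT and 93 of the 628 of SOD1G93A mice, and sub-cluster 3 had 88 and 107. Stat3 over all WT nuclei pooled was at 58.4 CPM in sub-cluster 1 and 119.7 in sub-cluster 3, and the part of this shift in the astrocyte result was not tested. Among astrocyte sub-clusters the log2 fold change of Stat3 was 0.49 (SE 0.22, FDR = 0.87) in sub-cluster 0, 1.03 (SE 0.31, FDR = 0.24) in sub-cluster 1 and 0.33 (SE 0.26, FDR = 0.81) in sub-cluster 3, none of which passed. Stat3 was below the filter in sub-cluster 2, at 11.8 to 53.8 CPM in WT and 52.7 to 231 in SOD1G93A mice, and in sub-cluster 4, at 65.3 to 212 and 0 to 113. The log2 ratio within pools was -0.55, 0.04 and -0.58 in sub-cluster 4. Over the sub-clusters of astrocytes and microglia 0 of 36 tests of members were called by limma, and 0 by edgeR and DESeq2, with 6 at an unadjusted p under 0.05. Of all gene tests there, 47 of 30466 (0.154%) were called.

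Osmr and Socs3 in astrocytes fell below the filter of the main test, and the Osmr levels of the genotypes did not overlap. Osmr had 19 UMIs in WT and 47 in SOD1G93A mice, with levels of 0 to 4.93 and 6.02 to 17.0 CPM, and it was higher in 6 of 6 pairs without overlap. By sub-cluster, Osmr over all mice pooled was at 20.8 CPM in sub-cluster 3, which held a larger share of the SOD1G93A nuclei, and at 0.40 to 8.73 in the other 4. Within sub-cluster 3 the pooled level was 9.97 in WT and 29.0 in SOD1G93A mice, and the part of the shift between sub-clusters in the Osmr difference was not tested. A two-sided exact sign-flip permutation test over the 6 pairs gave p = 0.0312, the smallest it can give, and an adjusted p of 0.141 over the 9 tests of this kind, which covered 5 members below the filter in astrocytes and other cell types. In nuclei labelled microglia Osmr was lower in 6 of 6 pairs, on 19 UMIs in WT and 7 in SOD1G93A mice, with overlapping groups and the same p and adjusted p by this exact test. Among 13795 genes with at least 20 UMIs in astrocytes, 138 (1%) had groups that did not overlap. In limma with no filter, a setting chosen after seeing the data, the log2 fold change was 1.75 (SE 0.41, FDR = 0.0204).

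That unfiltered call for Osmr depended on single mice. Without the female WT mouse of pool C its FDR was 0.209, and it was 0.107 when the male WT mouse from pool B was left out and 0.121 and 0.118 when the male SOD1G93A mice from pools B and C were. Socs3, with 5 and 18 UMIs, was at 0.88 ± 1.03 CPM in WT and 4.25 ± 2.5 in SOD1G93A mice and higher in 5 of 6 pairs (exact p = 0.0625, adjusted p = 0.141). Il6ra had 15 and 33 UMIs, also higher in 5 of 6 pairs (adjusted p = 0.141).

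The remaining members in astrocytes did not pass the test. Lifr had a log2 fold change of -0.36 (FDR = 0.25), with WT mice at 156 to 251 and SOD1G93A mice at 139 to 188 CPM, which overlapped. Il6st had 0.30 (FDR = 0.43), with 64.5 to 90.8 and 67.9 to 118. Cntfr (-0.19), Jak1 (-0.19) and Jak2 (0.00) also had overlapping groups.

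**Figure D4:**
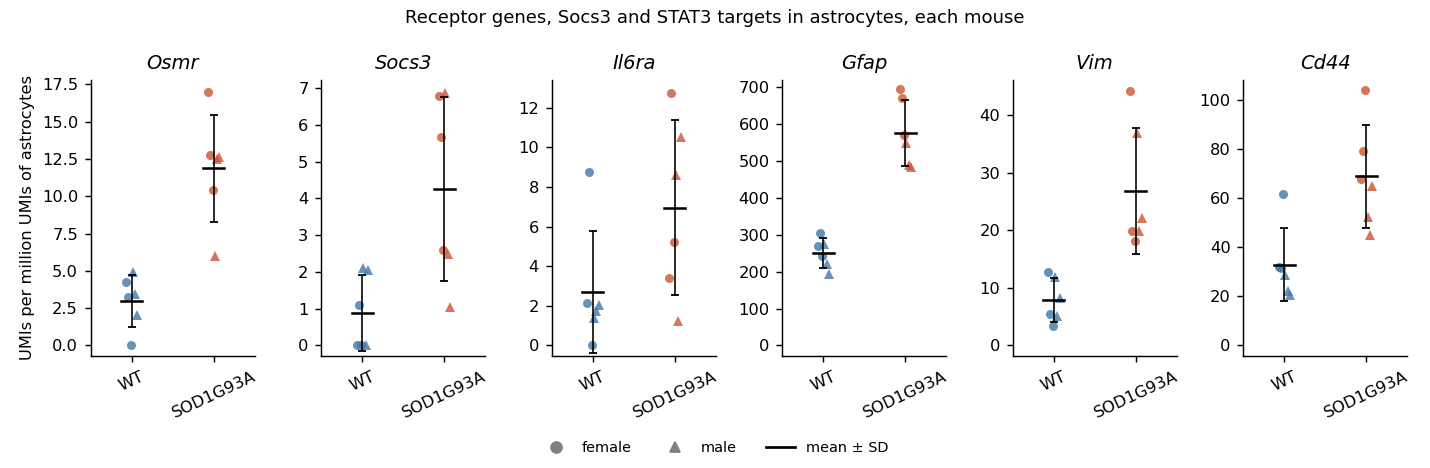
Receptor genes, Socs3 and STAT3 target genes in astrocytes (CPM of astrocytes, y axis) by genotype (x axis), with 1 point per mouse (circles female, triangles male), bars for the mean ± SD and a separate scale for each gene (Osmr, Socs3, Il6ra, Gfap, Vim and Cd44). Osmr is at 0 to 4.93 in WT and 6.02 to 17.0 in SOD1G93A mice and Gfap at 194 to 304 and 485 to 696, without overlap, while Socs3 and Il6ra overlap.

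In the other cell types no member passed the test. Over the 8 types other than oligodendrocytes with a tested member, 45 member tests gave 9 unadjusted limma p under 0.05 and the 1 call of Stat3 in astrocytes. Of all 58463 gene tests in these types and in ependymal cells, 4450 (7.61%) had such a p and 387 (0.662%) were called. Stat3 in motor neurons was 93.1 to 178 in WT and 114 to 244 in SOD1G93A mice (log2 fold change 0.45, FDR = 0.28). In Schwann/meningeal nuclei it was 0.75 (FDR = 0.999), and 49 of 240 UMIs of SOD1G93A mice came from 1 nucleus of a male mouse of pool B. In nuclei labelled microglia, OPCs, endothelial cells and neurons the log2 fold changes were 0.30, 0.26, 0.21 and 0.15. The point estimate for Stat3 was above 0 in all of these types, and their groups overlapped.

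**Figure D5:**
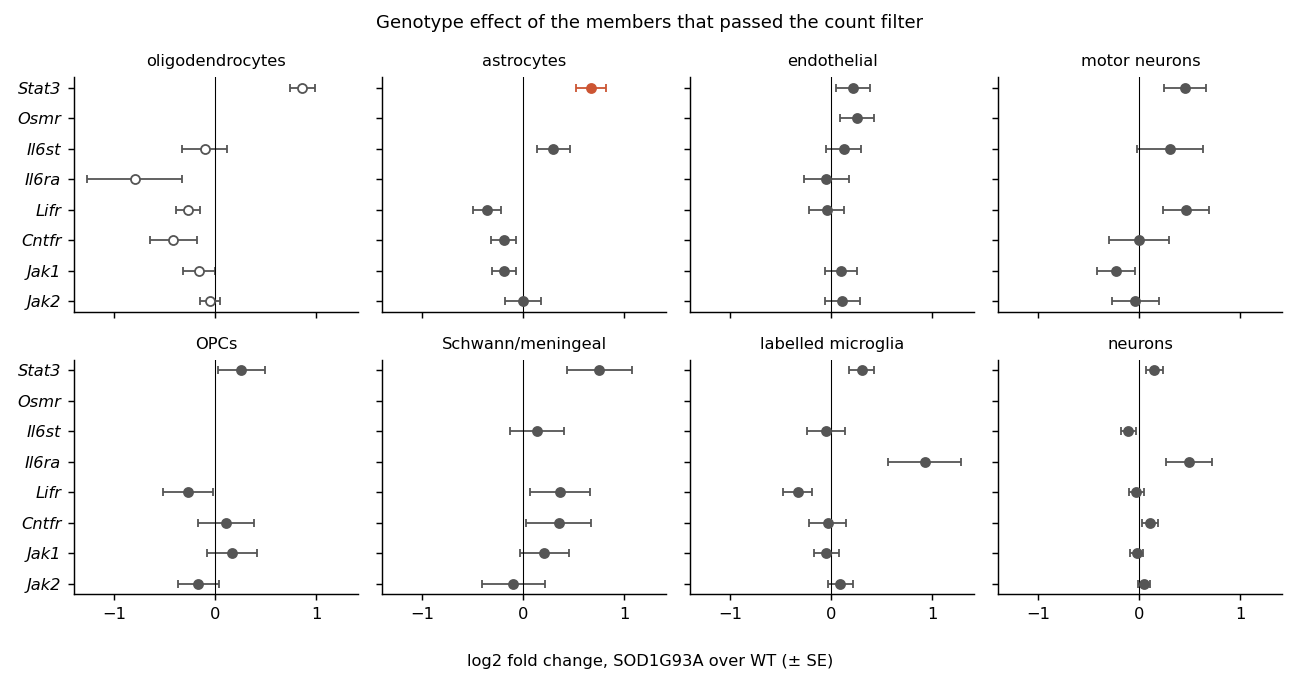
Log2 fold change of SOD1G93A over WT mice (x axis, with SE) for the members that passed the count filter, 1 panel per cell type. Open points are the oligodendrocyte values, given as a description, where Stat3 is at 0.87, and the coloured point is the 1 call, Stat3 in astrocytes at 0.67, while Stat3 in Schwann/meningeal nuclei (0.75) has an SE of 0.32.

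Receptor genes in endothelial cells, nuclei labelled microglia and motor neurons did not pass the test. Osmr in endothelial cells was 156 to 203 CPM in WT mice and 144 to 390 in SOD1G93A mice (log2 fold change 0.26, FDR = 0.98). The male SOD1G93A mice were at 390, 295 and 194 and the females at 144, 148 and 164.6, and the difference of the genotype effect between sexes, 0.80 (SE 0.33), had an FDR of 1.00 in limma. Il6ra in nuclei labelled microglia was 0 to 13.5 in WT and 6.13 to 25.9 in SOD1G93A mice (0.93, FDR = 0.48). In motor neurons Lifr was 89.3 to 199 and 108 to 303 (0.47, FDR = 0.33).

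No member had a sex difference of the genotype effect at FDR < 0.1, with 0 calls by limma, edgeR or DESeq2 in 159 tests. These covered cell types, sub-clusters and neuron sub-types, and 9 had an unadjusted limma p under 0.05. The Stat3 tests in oligodendrocytes and their sub-clusters, on the counts by which it was chosen, were among the 159. Over all genes of the same cell types, sub-clusters and neuron sub-types 68 of 196713 tests (0.0346%) were called. In nuclei labelled microglia Stat3 had a male effect of 0.75 (SE 0.15) and a female effect of -0.15 (SE 0.20), a difference of 0.90 (SE 0.25, FDR = 0.999). The male SOD1G93A mice were at 84.8, 94.97 and 104 CPM, the male WT mice at 48.0, 55.0 and 70.8. In the 9 neuron sub-types 0 of 50 member tests were called by limma, edgeR or DESeq2, with 3 at an unadjusted limma p under 0.05, against 19 calls in 75459 gene tests (0.0252%). Stat3 was nearest in sub-type DE at 0.30 (SE 0.10, FDR = 0.50).

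Other genes of the pathway were taken from a list of 65, of which 31 could be tested in astrocytes, with 3 called higher and 1 lower and a median log2 fold change of -0.09, against 214 of 9347 (2.29%) called, 129 of them higher (1.38%), and a median of 0.02 for all genes. Gfap was 194 to 304 CPM in WT and 485 to 696 in SOD1G93A mice, without overlap (log2 fold change 1.12, SE 0.11, FDR = 7.3e-07). Vim, which encodes the filament protein vimentin, was 3.43 to 12.8 and 18.2 to 44.1 (1.71, FDR = 0.0020), and Cd44, a cell-surface glycoprotein, was 20.6 to 61.8 and 44.9 to 104 (0.99, FDR = 0.0054). Vim passed the count filter through its level in SOD1G93A mice, so its place among the tested genes is not independent of its difference; in limma with no filter its FDR was 0.000586. Pias1, an inhibitor of activated STATs, fell by 0.44 (FDR = 0.0790), from 243 to 188 CPM on average. That call was lost when any of 9 of the 12 mice was left out, with log2 fold changes of -0.47 to -0.38. Within astrocyte sub-cluster 0 Gfap was again called (0.86, SE 0.15, FDR = 0.0022). The 3 higher genes belong to the group of 22 STAT3 targets, of which 11 were tested, some of them, such as Vim, by virtue of their level in SOD1G93A mice, so that no median is given. That group was drawn up with earlier results of these data known. In oligodendrocytes 28 list genes passed the filter, 17 with an estimate above 0, and their median of 0.06 stood beside 0.01 for all genes. The STAT3 targets among them were 7 genes, 3 with an estimate above 0, with a median of -0.10.

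Among the other STAT3 targets in astrocytes, Cebpd (1.10, FDR = 0.14), Cebpb (0.63, FDR = 0.24), Serpina3n (1.21, FDR = 0.27) and Vegfa (-0.40, FDR = 0.20) did not pass. Cebpd and Serpina3n, with no WT mouse above 8.58 CPM, were also tested only through their level in SOD1G93A mice. Of the 4 transcription factors tested 1 had an estimate above 0, and Stat5a had -0.54 (FDR = 0.41), Stat5b -0.19 and Stat2 -0.25. Of the kinases Tyk2 was the 1 tested (0.12). Of the inhibitors Pias4 had -0.49, Socs5 0.23 and Socs4 -0.25. The receptor genes Il11ra1 (-0.18), Ifngr1 (0.47), Ifnar1 (-0.41), Ifngr2 (0.35) and Egfr (-0.12) did not pass. Outside astrocytes no list gene was called in any cell type tested, oligodendrocytes not counted. In motor neurons, where 157 of 5118 genes (3.07%) were called, the 13 genes tested included Ptpn11 (-0.39, FDR = 0.39), Stat5b (0.44, FDR = 0.40), Pias2 (-0.45, FDR = 0.47), Bcl2l1 (0.41, FDR = 0.51) and Vegfa (0.34, FDR = 0.68).

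The genes whose level over the 8 cell types of WT mice was most like that of Stat3 were Gbe1, Filip1, Rit1, Lnx2 and Tns1, with Pearson's r of 0.897, 0.892, 0.891, 0.891 and 0.890 among 12778 genes, over 8 points that share the 6 mice. Only Rit1 was again among the 5 most alike in SOD1G93A mice. Of the members, Il6ra (0.61), Osmr (0.57), Jak1 (0.56) and Lifr (0.53) had higher values than Il6st (0.33), Jak2 (0.14) and Cntfr (-0.18) in WT mice. In SOD1G93A mice the values were 0.43 for Il6ra, 0.53 for Osmr, 0.57 for Jak1, 0.76 for Lifr, 0.51 for Il6st, 0.22 for Jak2 and -0.01 for Cntfr, so that Il6st then stood above Il6ra.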

How the data were processed

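The lumbar spinal cord of 12 mice was profiled by single-nucleus RNA sequencing (10X Genomics) in 3 pools of 4 mice with nuclear hashtags. The authors aligned reads with Cell Ranger 3.1 (STAR 2.5.1b) to the mm10 pre-mRNA reference, assigned nuclei to mice from the hashtags, filtered nuclei on genes detected and mitochondrial content, removed hashtag doublets and annotated the nuclei in Seurat 4.0.3 (R 4.0.3). They deposited UMI counts, which are raw and not normalized, and a table of nuclei with mouse, genotype, sex, cell type, sub-cluster and the mitochondrial percent, which the authors computed per nucleus. The genotype of each mouse was taken from that table, since the 3 submitted samples are pools.

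UMI counts were summed per mouse over each cell type or sub-cluster. Genotypes were compared with limma 3.58.1 (voom, statmod 1.5.0, R 4.3.3) on pseudobulk counts, with edgeR 4.0.16 filterByExpr (minimum count 10), TMMwsp factors, sex-by-genotype groups, pool as a block and Benjamini-Hochberg adjustment over the genes of each cell type (FDR < 0.1). Fold changes are on the TMMwsp scale, whose factors ran from 0.949 to 1.04 in oligodendrocytes and from 0.915 to 1.07 in astrocytes, and levels are not rescaled. Cell types were compared within mice by two-sided exact sign-flip tests with a prior count of 0.5. The submitters label the pool a batch. Mice of 1 pool deviated together in oligodendrocytes (median correlation 0.174, 11 of 18 pairs above 0.1) and in neurons (0.365, 12 of 18 pairs), against -0.0802 and -0.176 across pools. In astrocytes the median was 0.0492, with 6 of 18 pairs above 0.1, against 0.00834 across pools. The fit was tested on simulated data. Members and lists were chosen with earlier results of these data known. Named genes were every member, list genes called at FDR < 0.1, up to 4 per list group with the smallest adjusted p in astrocytes and in motor neurons, and the 5 most like Stat3. Alternatives were edgeR, DESeq2 1.42.0, other scalings and filters, no pool term, and leaving out each mouse. Summed UMIs carry counting error, and intervals cover that only. A normalized table and the readme were not used, and some genes of the list are not reported here.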

Additional observations from a re-analysis of the deposited data

Results flagged for a closer look

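In groups of 6 mice, 1 mouse stood far from the others in 10 of 102 groups of member levels. The cut-off used gives about 1 in 20 for independent normal values. These values are CPM, some on as few as 2 UMIs, and several groups share a library. The count of 10 therefore cannot be set against that rate. Jak1 in astrocytes was 187 CPM in the female SOD1G93A mouse of pool C, next to 156. Lifr in nuclei labelled microglia was 31.9 in the male WT mouse of pool C, next to 61.1, and 80.8 in the female SOD1G93A mouse of pool A, next to 53.6. Lifr in motor neurons was 199 in the male WT mouse of pool C, next to 128. In OPCs of the female SOD1G93A mouse of pool C, which rest on 2 UMIs each, Stat3 and Lifr were both 180, next to 87.6 and 77.9. In Schwann/meningeal nuclei of the male WT mouse of pool B, Il6st was 138 and Jak2 277, next to 85.4 and 104, on 2 and 4 UMIs of a library of 14464. In the same type the male SOD1G93A mouse of pool B had Lifr at 412 and Stat3 at 193, next to 183 and 95.5, and 49 Stat3 UMIs there came from 1 nucleus.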

How the results depend on the processing

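The 1 member call over cell types, Stat3 in astrocytes, held under edgeR, TMM, DESeq2 size factors, a minimum count of 30 and a non-robust fit. DESeq2's own test gave 0 calls, since its adjusted p for Stat3 is missing, and testing every gene with at least 1 UMI gave 2 (Stat3 and Osmr in astrocytes). Leaving out single mice gave 0 to 2 calls, 0 without the female WT mouse of pool C. In glial sub-clusters the 0 calls became 5 when every gene was tested, in a setting where 6864 of 129884 genes were called, and 0 to 1 when mice were left out. The 4 list calls became 2 in DESeq2 and 7 with every gene tested, and 3 to 5 with mice left out. Against 17 calls between neighbouring cell types there were 15 to 18 with mice left out, 15 to 17 of them shared, and 23 on the CPM scale, 15 of them shared. The 6 WT mice alone gave 0. Their smallest possible exact p is 0.0312, which leaves little room to pass over 63 pairs, so that 0 cannot weigh on the 17 calls. Of the 5 genes most like Stat3, 1 was found in SOD1G93A mice. Stat3 in oligodendrocytes ranged from 0.76 to 0.92 with mice left out. Without the replicate block for pool, the member calls stayed at 1, Stat3 in oligodendrocytes was 0.86 and in astrocytes 0.67 (FDR = 0.0325), unfiltered Osmr in astrocytes had an FDR of 0.0605, and 19 pairs of cell types passed. On the CPM scale 1 of the 17 pairs, Socs3 in oligodendrocytes and neurons, turned its direction. Neuron sub-types and the sex difference gave 0 member calls in every alternative run. Depth limited Socs3 in every cell type, Osmr outside endothelial cells, and all members in ependymal cells and nuclei labelled fibroblasts.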

Other observations

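Ligands of the family were scarce in these nuclei. Over all 14662 nuclei Clcf1 had 159 UMIs, Il27 98, Ctf1 89, Il11 80, Lif 19, Il6 16 and Osm 8, and none of these passed the count filter in any cell type. Of the 19 Lif UMIs 12 were in astrocytes, 2 of them in WT mice. Cntf had 0 UMIs. In the annotation it lies wholly inside Zfp91 on the same strand, and the part of this overlap in the 0 was not tested.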
